A study of Mus musculus with 9 samples.

Results

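The TREM and CD300 genes encode small receptors of myeloid cells with a single immunoglobulin-like domain. The 10 genes described here, Trem2, Trem1, Trem3, Treml1, Treml2, Treml4, Cd300a, Cd300lb, Cd300ld and Cd300lf, were taken by name from the 19938 mouse genes that had a probe set annotated to 1 gene alone. Each of the 10 had 1 such probe set. Expression was measured on 9 microarrays, 1 per mouse, in cells sorted from the brain as CD45+ CD11b+ and labelled microglia, the resident macrophages of the brain. Neutrophils and monocytes carry both surface markers too. All 9 mice were 8.5 months old, carried the 5XFAD transgenes, which encode mutant human amyloid precursor protein and presenilin, and had no mouse TREM2. By genotype, 3 mice expressed the R47H variant of human TREM2 (R47H), 3 expressed its common variant (CV) and 3 expressed no human TREM2 (KO). Mouse 1 of each group was female and mice 2 and 3 were male. The sources used here do not give the promoter that drives the human gene, its copy number or the kind of deletion in mouse Trem2, and no mouse with its own Trem2 was analysed here.

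Receptors of this kind sit on the cell surface in activating and inhibitory forms. Activating members such as TREM2, TREM1, TREM3 and CD300LB have a short tail and signal through the adaptor TYROBP, whose phosphorylated tyrosine motifs recruit the kinase SYK. CD300LD pairs with another adaptor, the Fc receptor gamma chain encoded by Fcer1g. Inhibitory members such as CD300A and CD300LF carry tyrosine motifs of their own that recruit the phosphatases SHP-1 and SHP-2. TREML1 carries such a motif too. Several members bind lipids exposed on dying cells or carried by lipoproteins. In the brain TREM2 is a receptor of microglia, whereas TREM1 is best known from neutrophils and monocytes. In the RefSeq gene order of the mouse genome the 6 TREM genes lie together on chromosome 17, in the order Trem1, Trem3, Treml4, Treml2, Trem2 and Treml1, with B430306N03Rik between Treml2 and Trem2. The 4 CD300 genes lie on chromosome 11, where Cd300c stands between Cd300lb and Cd300ld, and Rab37 overlaps Cd300lf.

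Values are log2 expression values as deposited, so a difference of 1 is 2-fold, and differences are given ± their standard error (SE). The arrays had medians of 5.28 to 5.35 and correlated with each other at 0.981 to 0.990. A gene was tested if its mean reached 5.31, the midpoint of the probe set means, which kept 10795 genes and 9 of the 10 receptors. Trem3, at a mean of 5.13, fell below this limit, and its differences come from a fit to all 19938 genes. The microglial markers Cx3cr1 and Csf1r lay between 12.01 and 12.43 in every mouse, and all 11 microglial markers with a probe set, of 12 listed, passed the limit. For each cell type a score averaged the deviations of the tested markers from their means over the 9 arrays. The microglial score was -0.01 to 0.07 in R47H mice, -0.12 to -0.07 in CV mice and 0.03 to 0.16 in KO mice. For the 11 tested neutrophil markers, of 14 listed, the score was -1.29 to -0.15 in R47H mice, 0.79 to 1.68 in CV mice and -1.89 to 1.63 in KO mice, where KO mouse 3 lay at 1.63 and KO mice 1 and 2 at -1.89 and -1.55. For the 8 tested oligodendrocyte markers, of 9 listed, it was 0.55 to 0.92 in R47H mice, -0.69 to -0.29 in CV mice and -0.66 to 0.12 in KO mice. In sorted pools of cells such as these, a greater share of cells of a type and more RNA per cell of that type cannot be told apart.

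None of the 9 tested receptors passed the test in any comparison of genotypes (limma, Benjamini-Hochberg adjusted p under 0.05 over the 10795 genes). In R47H minus KO 0 of 9 were called, where 0.0834% of all tested genes were, and 1 of 9 had an unadjusted p under 0.05, where 5.68% of all genes did. In CV minus KO 0 of 9 were called against 1.21% of all genes, and 2 of 9 had an unadjusted p under 0.05 against 13.2% of all genes. In R47H minus CV 0 of 9 were called against 0.797% of all genes, and 5 of 9 had an unadjusted p under 0.05 against 12.4% of all genes. An F-test of any genotype difference called 0 of 9 against 1.32% of all genes. The lowest adjusted p of any receptor was 0.151, for Cd300ld in R47H minus CV. The 95% intervals below give the range of differences that the data allow. Over the 9 receptors the median difference was -0.11 in R47H minus KO, 0.04 in CV minus KO and -0.25 in R47H minus CV, where the medians over all tested genes were -0.0011, -0.02 and 0.01. The comparisons share arrays with each other, so their values are not independent.

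**Figure D1:**
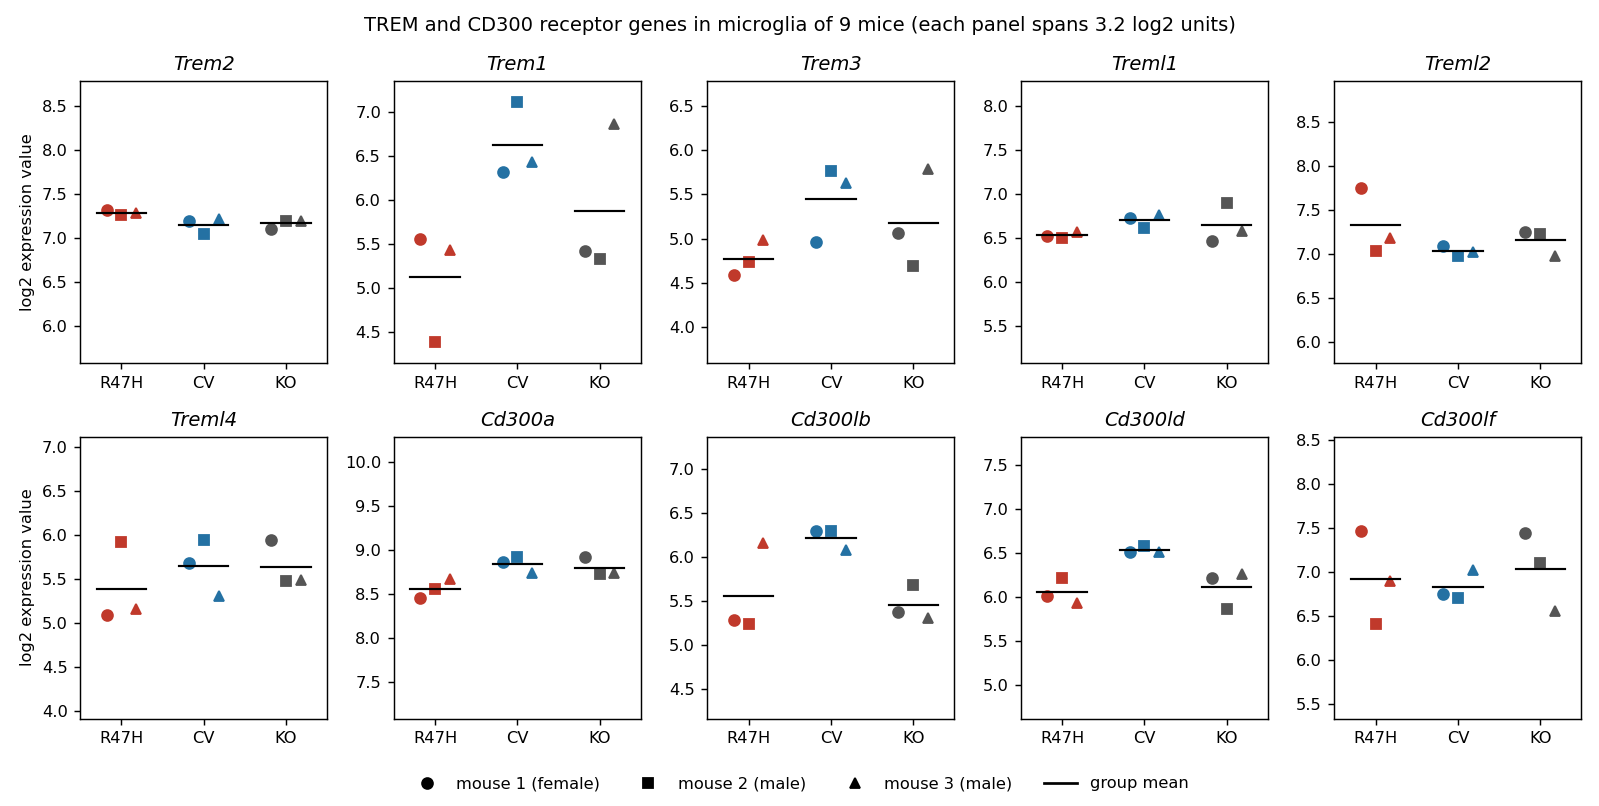
Log2 expression value of each of the 10 receptor genes (y axis) in R47H, CV and KO mice (x axis); each point is 1 mouse, its shape gives the mouse number and sex, and the bar is the mean of 3 mice. All panels span the same number of log2 units. Cd300ld in CV mice lies at 6.51 to 6.58, above every R47H and KO mouse, while Trem1 is spread widely, from 4.39 to 7.11.

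Trem2 (probe set 10445781) is the gene whose protein was removed in all 9 mice. Its probe set read 7.31, 7.26 and 7.28 in R47H mice 1 to 3, against 7.19, 7.05 and 7.21 in CV mice and 7.10, 7.19 and 7.19 in KO mice. The 3 R47H values were the highest of the 9, while CV and KO values overlapped. The R47H minus KO difference was 0.12 ± 0.07 (95% interval -0.04 to 0.28, limma adjusted p = 0.923), and the R47H minus CV difference was 0.13 ± 0.07 (-0.03 to 0.30, adjusted p = 0.509). The CV minus KO difference was -0.01 ± 0.07, with an interval of -0.18 to 0.15. Between mice of 1 genotype its SD was 0.06, below that of 90.4% of tested genes. Whether this probe set reads a remaining piece of the mouse transcript, the human transgene or only background was not tested, so it checks no genotype label.

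Trem1 (10445746), which amplifies inflammatory signalling of neutrophils and monocytes, had the widest spread of the family. It stood at 5.56, 4.39 and 5.43 in R47H mice, against 6.31, 7.11 and 6.43 in CV mice and 5.42, 5.33 and 6.86 in KO mice. All CV values lay above all R47H values, and KO mouse 3 lay among the CV mice while the other KO mice lay among the R47H mice. The R47H minus CV difference was -1.49 ± 0.45 (95% interval -2.51 to -0.47, limma unadjusted p = 0.00927, adjusted p = 0.229). The difference was -0.75 ± 0.45 in R47H minus KO (adjusted p = 0.923) and 0.75 ± 0.45 in CV minus KO (adjusted p = 0.532). Without KO mouse 3 they were -0.24 and 1.26 (limma adjusted p of the second, 0.171). Its SD between mice of 1 genotype was 0.66, above that of 99.7% of tested genes.

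The neutrophil score and Trem1 separated the same mice. The CV mice and KO mouse 3 had scores of 0.79 to 1.68 and Trem1 at 6.31 to 7.11, and the other 5 mice had scores of -1.89 to -0.15 and Trem1 at 4.39 to 5.56. Among these 5 the order differed: KO mouse 1 had the lowest score with Trem1 at 5.42, and R47H mouse 2 the lowest Trem1 at a score of -0.70. The monocyte score, over 6 tested markers of 10 listed, separated the same mice, at -0.76 to -0.42 in R47H, 0.68 to 1.21 in CV and -0.76 to 0.67 in KO. Over the 9 mice the Pearson r of Trem1 was 0.812 with the neutrophil score and 0.892 with the monocyte score. With the border macrophage and astrocyte scores it was -0.848 and -0.824. In a model that included the neutrophil score, the Trem1 difference was -0.68 in R47H minus KO, -0.29 in CV minus KO, where its sign turned, and -0.39 in R47H minus CV (limma adjusted p = 0.776, 1 and 0.907). How much of the Trem1 signal came from microglia was not tested. Of 13 neutrophil markers with a probe set, 11 passed the limit for testing. The brightest, S100a8, had a mean of 10.34 in R47H mice, 12.61 in CV mice and 9.98 in KO mice, while Csf3r stood at 10.28, 10.21 and 10.19. In R47H minus CV 10 of the 11 were lower and 1 was higher.

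Trem3 (10445753), the neighbour of Trem1 and like it a TYROBP-coupled receptor in the mouse, was dimmer. It stood at 4.59, 4.73 and 4.98 in R47H mice, against 4.96, 5.76 and 5.63 in CV mice and 5.06, 4.69 and 5.79 in KO mice. As with Trem1, KO mouse 3 held the highest KO value, and R47H and CV overlapped at CV mouse 1. The R47H minus CV difference was -0.69 ± 0.25 (95% interval -1.26 to -0.11, limma adjusted p = 0.433 over 19938 genes). In CV minus KO it was 0.27 ± 0.25, and -0.28 in the model with the neutrophil score. In R47H minus KO it was -0.41 ± 0.25, and -0.16 without KO mouse 3.

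**Figure D2:**
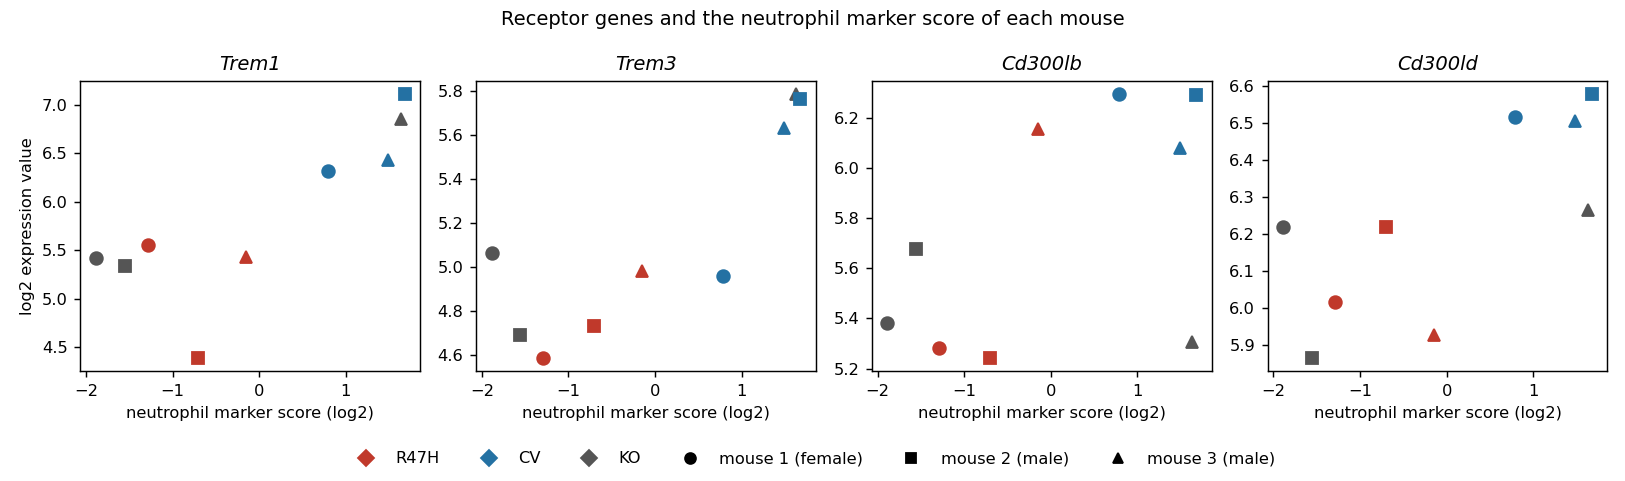
Log2 expression value of Trem1, Trem3, Cd300lb and Cd300ld (y axes, each with its own range) against the neutrophil marker score of the same mouse (x axis, mean log2 deviation of 11 markers). Each point is 1 mouse, coloured by genotype. KO mouse 3, at a score of 1.63, lies beside the CV mice for Trem1 and Trem3. For Cd300lb it lies at 5.30, below every CV mouse, and for Cd300ld at 6.27, below the CV mice and above all others.

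None of the 3 TREM-like genes was called between genotypes. Treml1 (10445789), a receptor stored in platelet granules, stood at 6.53, 6.50 and 6.57 in R47H mice, against 6.73, 6.61 and 6.76 in CV mice and 6.46, 6.90 and 6.58 in KO mice. R47H lay below CV without overlap, by a difference of -0.17 ± 0.11 (95% interval -0.41 to 0.08, limma adjusted p = 0.588). The R47H minus KO difference was -0.11 ± 0.11 and turned to 0.0092 without KO mouse 2, the highest of the 9. Platelet markers, of which 3 of 11 listed were tested, scored -0.22 to 0.20 in R47H, -0.21 to 0.19 in CV and -0.04 to 0.14 in KO, and these ranges overlap. The score averages markers that went opposite ways. Pf4, which is also on the border macrophage list, had means of 9.50 in R47H, 9.26 in CV and 9.26 in KO. Gp9 had means of 7.43, 7.82 and 7.92, and Itgb3 of 7.49, 7.46 and 7.55. The part of platelets in the Treml1 values was not tested.

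Treml2 (10445767), found on myeloid and B-lineage cells, stood at 7.75, 7.04 and 7.19 in R47H mice, against 7.09, 6.98 and 7.02 in CV mice and 7.25, 7.23 and 6.98 in KO mice. The R47H female held the highest value, and all groups overlapped. The R47H minus CV difference was 0.29 ± 0.13 (95% interval 0.01 to 0.58, limma adjusted p = 0.398) and 0.12 without that mouse. In R47H minus KO it was 0.17 ± 0.13, and -0.0046 without that mouse. Of the B cell markers only Cd22 and Cd79b, of 8 listed, passed the limit for testing, and their score was -0.21 to 0.30 in R47H, -0.29 to 0.13 in CV and -0.19 to 0.50 in KO. The 2 went opposite ways in each comparison. Cd22 had means of 7.66 in R47H, 7.70 in CV and 7.53 in KO, and Cd79b of 7.51, 7.07 and 7.71. Cd79b was called lower in CV minus KO, where 1.21% of all tested genes were called. Over the 9 mice, which share genotype and sex, Treml2 ran with the B cell score at a Pearson r of 0.682 (0.679 as deviations from genotype means), and the highest score of each genotype was that of its female. With the neutrophil score the Pearson r of Treml2 was -0.658 (-0.569 as deviations from genotype means). Its Spearman rho was -0.9 with the neutrophil score and 0.867 with the B cell score. With the oligodendrocyte score the Pearson r of Treml2 was 0.675 (0.605 as deviations from genotype means). The B cell score was not particular to Treml2, since Cd300lf ran with it at a Pearson r of 0.738 (0.73 as deviations from genotype means). Treml2 and Cd300lf ran with each other at 0.772. The part of B cells, neutrophils and oligodendrocytes in the Treml2 values was not tested.

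Treml4 (10445758), which on macrophages and dendritic cells binds dying cells, stood at 5.09, 5.92 and 5.16 in R47H mice, against 5.68, 5.94 and 5.30 in CV mice and 5.94, 5.48 and 5.49 in KO mice. The 3 groups overlapped. Its differences were -0.24 ± 0.25 in R47H minus KO and -0.25 ± 0.25 in R47H minus CV (limma adjusted p = 0.956 and 0.743). In CV minus KO the difference was 0.0084 ± 0.25, and its sign turned under quantile normalization and under median centring (-0.01 and -0.02). The 95% interval of that difference, -0.56 to 0.58, leaves room for a change of either sign.

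Among the CD300 receptors, Cd300lb and Cd300ld were the members with the highest values in CV mice relative to KO mice. Cd300lb (10392796), an activating receptor that couples to TYROBP, stood at 5.28, 5.24 and 6.16 in R47H mice, against 6.29, 6.29 and 6.08 in CV mice and 5.38, 5.68 and 5.30 in KO mice. CV lay above KO without overlap, and R47H mouse 3 lay within the CV range while R47H mice 1 and 2 lay below the KO range. The CV minus KO difference was 0.77 ± 0.22, or 1.70-fold (95% interval 0.26 to 1.27, limma unadjusted p = 0.00764, adjusted p = 0.185). The R47H minus CV difference was -0.66 ± 0.22 (adjusted p = 0.281), and the R47H minus KO difference was 0.11 ± 0.22 (adjusted p = 0.981).

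Whether Cd300lb was called depended on R47H mouse 3. Without it Cd300lb passed the test in CV minus KO (0.77, limma adjusted p = 0.0307), in R47H minus CV (-0.96, adjusted p = 0.0482) and in the F-test of any genotype difference (adjusted p = 0.0333), and the R47H minus KO difference turned to -0.19. R47H mouse 3 is not part of CV minus KO, where the difference was 0.77 with and without it. There only the spread, which the model estimates over all groups together, was changed. With any other mouse left out Cd300lb was not called. In the model with the neutrophil score the Cd300lb differences were 0.88 in CV minus KO and -0.78 in R47H minus CV (adjusted p = 0.595 and 0.766). KO mouse 3, whose neutrophil score was among the highest, had Cd300lb at 5.30. Over the 9 mice the Pearson r of Cd300lb with that score was 0.534 (0.001 as deviations from genotype means). It was 0.612 with the monocyte score and -0.752 with the microglial score (-0.028 and -0.242 as deviations from genotype means). The part of these cells in the Cd300lb values was not tested.

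Cd300ld (10392808), which signals through the Fc receptor gamma chain, had the most even values in CV. It stood at 6.02, 6.22 and 5.93 in R47H mice, against 6.52, 6.58 and 6.51 in CV mice and 6.22, 5.87 and 6.27 in KO mice. All CV mice lay above all R47H and all KO mice, and R47H and KO overlapped. The CV minus KO difference was 0.42 ± 0.12, or 1.34-fold (95% interval 0.15 to 0.69, limma unadjusted p = 0.00706, adjusted p = 0.178). The R47H minus CV difference was -0.48 ± 0.12 (-0.75 to -0.21, unadjusted p = 0.00322, adjusted p = 0.151), and the R47H minus KO difference was -0.06 ± 0.12 (adjusted p = 0.976).

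The Cd300ld differences kept their signs in CV minus KO and in R47H minus CV with each mouse left out, at 0.29 to 0.50 and -0.57 to -0.42, and were called in none of these. The CV minus KO value was 0.50 without KO mouse 3 (limma adjusted p = 0.121). In the model with the neutrophil score they were 0.26 and -0.31 (adjusted p = 0.877 and 0.838). The CV mice, which had the highest Cd300ld, also had high neutrophil and monocyte scores, and the part of those cells in the Cd300ld values was not tested. KO mouse 3, with a neutrophil score of 1.63 and a monocyte score of 0.67, had Cd300ld at 6.27, below the CV mice and above every other KO mouse and every R47H mouse. Over the 9 mice the Pearson r of Cd300ld was 0.730 with the neutrophil score and 0.841 with the monocyte score. As deviations from genotype means it was 0.373 and 0.443. The monocyte score includes Fn1, which passed the limit for testing only through CV.

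The inhibitory receptors showed other patterns. Cd300a (10382438), which binds phosphatidylserine and phosphatidylethanolamine on dying cells, stood at 8.45, 8.56 and 8.67 in R47H mice, against 8.86, 8.92 and 8.73 in CV mice and 8.92, 8.72 and 8.73 in KO mice. All R47H values lay below all CV and all KO values, and CV and KO overlapped. The R47H minus CV difference was -0.28 ± 0.09 (95% interval -0.49 to -0.07, limma unadjusted p = 0.0155, adjusted p = 0.278), and the R47H minus KO difference was -0.23 ± 0.09 (-0.44 to -0.02, unadjusted p = 0.0337, adjusted p = 0.821). Without R47H mouse 1 they were -0.18 and -0.14, and without KO mouse 1 the second was -0.15. R47H mice also had the highest oligodendrocyte scores (0.55 to 0.92). Astrocyte scores, over 4 tested markers of 8 listed, were highest in R47H too (0.47 to 0.70, against -0.52 to -0.30 in CV and -0.43 to 0.11 in KO). All 4 markers were higher in R47H minus CV, while in R47H minus KO 3 were higher and 1 lower. The lower one was Slc1a3, the brightest, with means of 7.96 in R47H, 7.82 in CV and 8.07 in KO. Slc1a2, with means of 5.71, 5.13 and 5.25, passed the limit for testing only through R47H. The part of oligodendrocytes and astrocytes in the lower Cd300a values was not tested.

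Cd300lf (10392845), an inhibitory receptor for lipids that murine norovirus uses to enter cells, stood at 7.46, 6.41 and 6.89 in R47H mice, against 6.75, 6.70 and 7.03 in CV mice and 7.44, 7.10 and 6.56 in KO mice. The groups overlapped, and the SD between mice of 1 genotype was 0.41, above that of 98.7% of tested genes. The differences were -0.11 ± 0.23 in R47H minus KO, -0.21 ± 0.23 in CV minus KO and 0.10 ± 0.23 in R47H minus CV (limma adjusted p = 0.98, 0.749 and 0.904). In the model with the neutrophil score the last 2 turned sign, to 0.10 and -0.23.

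**Figure D3:**
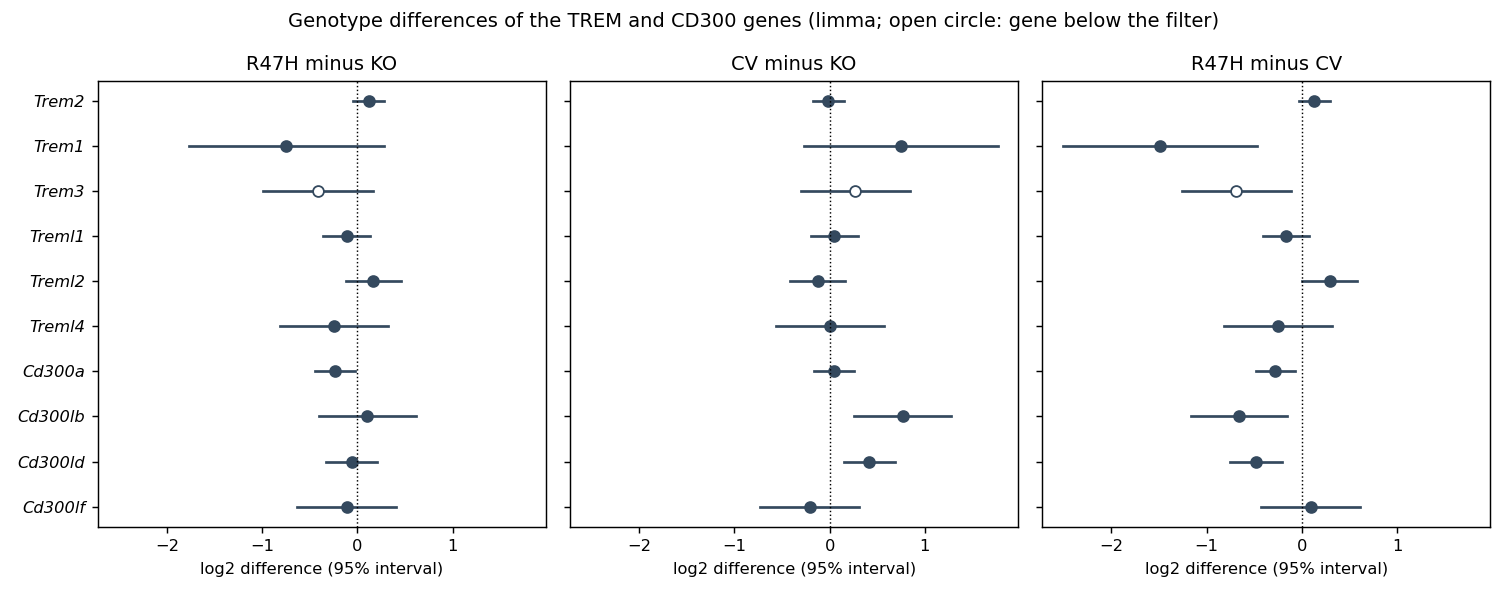
Log2 difference of each receptor gene (rows) in R47H minus KO, CV minus KO and R47H minus CV, as points with 95% intervals from the limma model. The open circle marks Trem3, which lay below the limit for testing. The intervals that exclude 0 are those of Cd300lb and Cd300ld in CV minus KO and of Cd300a in R47H minus KO. In R47H minus CV they are those of Trem1, Trem3, Treml2, Cd300a, Cd300lb and Cd300ld. None of the tested receptors passed adjustment over all genes.

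The windows around the transcription starts of 4 receptors are shown to give the sequence beside differing patterns of values. They are Trem1, which was higher in the mice with high neutrophil and monocyte scores, Cd300lb, Cd300ld and Cd300lf. Cd300lb and Cd300ld were higher in all CV than in all KO mice, and Cd300lf is a CD300 gene with no such pattern. Each holds 250 bases before and 50 after the start, from RefSeq on GRCm38.p6, written 5′ to 3′ along the gene. Capitals mark the PU-box GAGGAA, the core site of the myeloid factor PU.1, on either strand.
Trem1 promoter window (chr17:48232489-48232788, + strand): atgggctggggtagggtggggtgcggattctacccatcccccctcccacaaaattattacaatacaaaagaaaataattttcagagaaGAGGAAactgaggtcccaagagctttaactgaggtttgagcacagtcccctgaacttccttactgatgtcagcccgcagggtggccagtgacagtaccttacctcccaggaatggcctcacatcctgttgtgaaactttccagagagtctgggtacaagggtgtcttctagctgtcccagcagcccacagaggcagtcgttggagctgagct
Cd300lb promoter window (chr11:114934322-114934621, - strand): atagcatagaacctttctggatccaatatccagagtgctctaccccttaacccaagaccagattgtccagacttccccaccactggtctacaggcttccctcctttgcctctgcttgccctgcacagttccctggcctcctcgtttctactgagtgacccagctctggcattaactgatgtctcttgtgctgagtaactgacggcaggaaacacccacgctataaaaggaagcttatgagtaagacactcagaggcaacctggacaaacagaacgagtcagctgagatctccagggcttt
Cd300ld promoter window (chr11:114989837-114990136, - strand): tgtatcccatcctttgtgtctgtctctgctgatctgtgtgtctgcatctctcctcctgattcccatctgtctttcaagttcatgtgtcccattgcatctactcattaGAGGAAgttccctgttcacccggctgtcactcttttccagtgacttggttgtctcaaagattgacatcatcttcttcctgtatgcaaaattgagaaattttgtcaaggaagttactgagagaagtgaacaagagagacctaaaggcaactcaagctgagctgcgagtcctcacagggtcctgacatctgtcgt
Cd300lf promoter window (chr11:115133943-115134242, - strand): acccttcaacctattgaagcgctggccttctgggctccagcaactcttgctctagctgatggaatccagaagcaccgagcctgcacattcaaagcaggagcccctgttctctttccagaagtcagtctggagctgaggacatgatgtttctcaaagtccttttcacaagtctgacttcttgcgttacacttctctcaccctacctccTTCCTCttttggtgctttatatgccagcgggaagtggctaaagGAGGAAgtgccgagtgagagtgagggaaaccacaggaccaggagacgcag
The Trem1 and Cd300ld windows each held 1 match, at positions 89 and 108 from the 5′ end, the Cd300lf window held 2, at 208 and 251, and the Cd300lb window held none. A window was on record for 8 of the 10 receptors, of which 6 held the PU-box. Of 32851 mouse windows of this length 28.3% held it, a count that leaves out 1 chromosome, which holds none of the receptors. The AP-1 motif TGANTCA, searched on both strands, was in 1 of the 8, that of Trem2, where it did not overlap a PU-box. It was in 7.81% of the same 32851 windows. These are matches of letters, no binding was measured, and whether the windows relate to the genotype values was not tested.

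Groups did not overlap for 2 of the 9 tested receptors in R47H minus KO, Trem2 higher and Cd300a lower, where this held for 7.11% of all tested genes (3.84% higher and 3.27% lower). In CV minus KO it held for Cd300lb and Cd300ld, 2 of 9, both higher, against 14.0% of all genes (5.90% higher and 8.05% lower). In R47H minus CV it held for 5 of 9, Trem2 higher and Trem1, Treml1, Cd300a and Cd300ld lower, against 14.9% of all genes (8.74% higher and 6.17% lower). Between mice of 1 genotype several receptors varied more than most genes. The SD within genotypes was 0.42 for Trem3, 0.36 for Treml4, 0.33 for Cd300lb and 0.24 for Treml2, above that of 98.9%, 97.9%, 97.2% and 91.5% of tested genes. It was 0.15 for Cd300ld, 0.14 for Treml1 and 0.11 for Cd300a, above 68.1%, 60.7% and 37.7% of them.

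**Figure D4:**
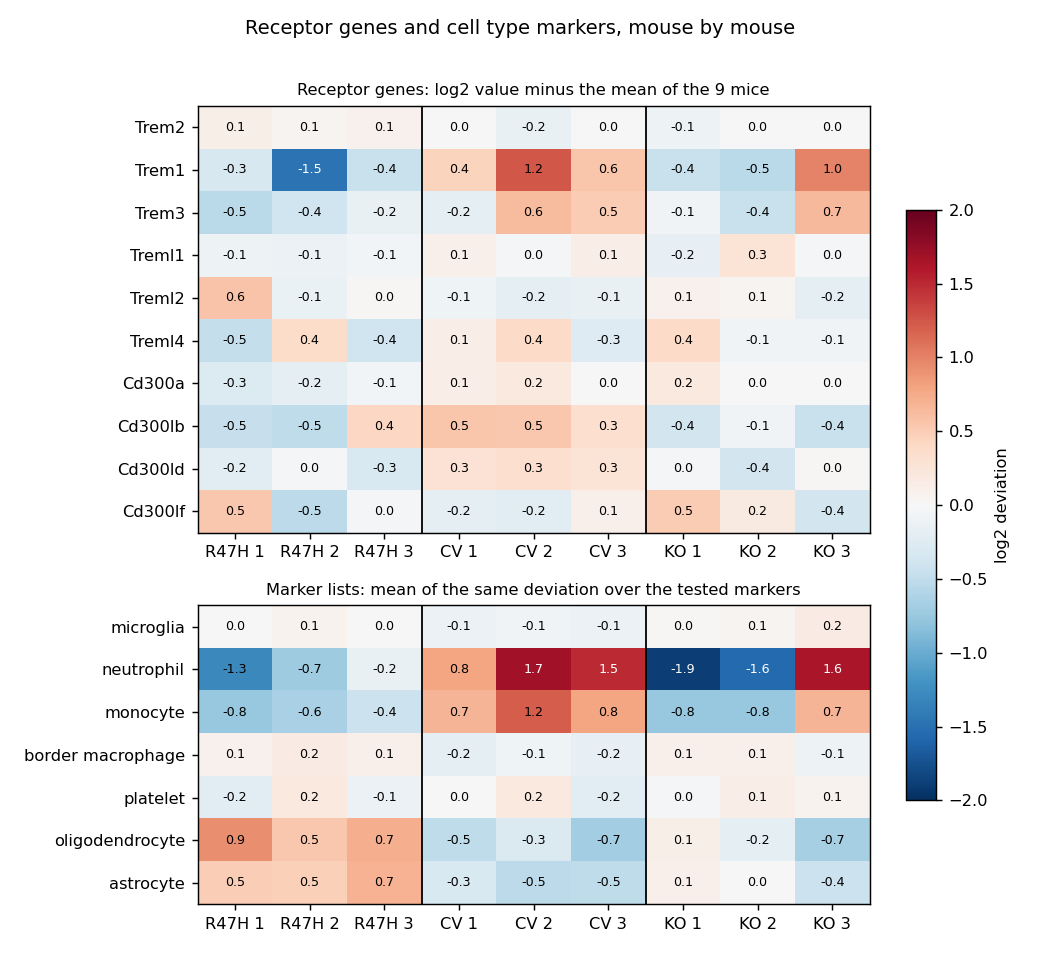
Mouse-by-mouse deviations on the log2 scale: the upper block gives each receptor gene minus its mean over the 9 mice, the lower block the same averaged over the tested markers of each cell type, with the colour scale from blue (lower) to red (higher). KO mouse 3 differs from KO mice 1 and 2 in the neutrophil row (1.63 against -1.89 and -1.55) and in Trem1 (6.86 against 5.42 and 5.33 as log2 values).

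Other genes of the 2 families were read from 5 probe sets of the 9 listed genes. Cd300c, Cd300c2 and B430306N03Rik, which RefSeq also names Treml6, were tested and 0 of 3 were called in any genotype comparison. Cd300c2, an activating receptor that lies next to Cd300ld, was the brightest of them, at 11.50 ± 0.11 in R47H, 11.49 ± 0.0033 in CV and 11.51 ± 0.10 in KO (SD, n = 3 each). Its CV minus KO difference was -0.02 ± 0.07 (95% interval -0.17 to 0.14, limma adjusted p = 0.94). Cd300c, which stands between Cd300lb and Cd300ld, differed by -0.09 ± 0.10 in CV minus KO and by -0.17 ± 0.10 in R47H minus KO. Cd300e and Cd300lg lay below the limit for testing, at 4.92 to 5.42 over all mice. The 2 probe sets annotated to several Cd300ld genes together were not used here, and cross-hybridisation between close CD300 paralogs was not tested.

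The adaptors and kinases through which these receptors signal were not called. Of 14 tested, of 16 listed, 0 were called in each of the 3 genotype comparisons, with median differences of -0.0060 in R47H minus KO, -0.05 in CV minus KO and 0.0060 in R47H minus CV. Tyrobp differed by 0.08 ± 0.07, 0.07 ± 0.07 and 0.0076 ± 0.07 in these comparisons. Fcer1g, the adaptor of CD300LD, differed by 0.06 ± 0.06, -0.06 ± 0.06 and 0.12 ± 0.06 (limma adjusted p of the last, 0.496). The genes with the smallest p beside it were the kinase genes Fyn (0.27 ± 0.14 in CV minus KO) and Pik3cg (-0.14 ± 0.07) and the adaptor gene Lat2 (0.15 ± 0.08). Of 6 genes for inhibitory phosphatases and DOK adaptors 0 were called. Dok2, an adaptor that dampens kinase signalling, stood at 5.78 ± 0.06 in R47H, 6.09 ± 0.17 in CV and 5.95 ± 0.13 in KO, and its R47H minus CV difference was -0.31 ± 0.09 (adjusted p = 0.227). Inpp5d, the lipid phosphatase SHIP1, differed by -0.18 ± 0.07 in CV minus KO (adjusted p = 0.316).

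Genes for ligands and for the proteases that shed TREM2 held the only called partner. Of 10 tested, of 12 listed, 1 was called higher in CV minus KO, 1 lower in R47H minus CV and 0 in R47H minus KO, and it was Lgals3 both times. Over all tested genes 1.21%, 0.797% and 0.0834% were called in these comparisons. Lgals3, the lectin galectin-3 that binds TREM2, stood at 8.80 ± 0.33 in R47H, 9.52 ± 0.20 in CV and 8.35 ± 0.16 in KO. The CV values lay above all R47H and all KO values. Its CV minus KO difference was 1.17 ± 0.12, or 2.25-fold (limma adjusted p = 0.00376), and 1.24 in the model with the neutrophil score (adjusted p = 0.0528). Its R47H minus CV difference was -0.72 ± 0.12 (adjusted p = 0.0411), and this call was lost with 7 of the 9 mice left out in turn (adjusted p up to 0.192). Pglyrp1, a ligand of TREM1 stored in neutrophil granules, stood at 6.78 ± 0.47 in R47H, 8.23 ± 0.70 in CV and 7.07 ± 1.16 in KO. Its R47H minus CV difference was -1.45 ± 0.48 (adjusted p = 0.278) and -0.20 in the model with the neutrophil score. Without KO mouse 2, which is in neither of these groups, the R47H minus CV difference stayed at -1.45 and passed the test (adjusted p = 0.0419). There only the spread, which the model estimates over all groups together, was changed. The apolipoprotein genes Clu and Apoe, whose products bind TREM2, differed by 0.72 ± 0.21 in R47H minus CV and by 0.19 ± 0.08 in CV minus KO (adjusted p = 0.211 and 0.33). Clu is also abundant in astrocytes, and the R47H mice had the highest astrocyte and oligodendrocyte scores, as given for Cd300a. The part of those cells in the Clu values was not tested.

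Other paired receptors of myeloid cells were set beside the family. Of 14 tested, of 22 listed, 0 were called in each comparison, and 2, 6 and 3 had an unadjusted limma p under 0.05 in R47H minus KO, CV minus KO and R47H minus CV, where 5.68%, 13.2% and 12.4% of all tested genes did. Siglech, a TYROBP-coupled receptor of microglia, stood at 11.78 ± 0.11 in R47H, 11.53 ± 0.03 in CV and 11.88 ± 0.05 in KO, with a CV minus KO difference of -0.35 ± 0.07 (limma adjusted p = 0.0715). Clec12a, an inhibitory lectin, differed by 0.81 ± 0.20 in CV minus KO (adjusted p = 0.11). Without KO mouse 3 that difference was 1.07 and passed the test (adjusted p = 0.00786), and with the neutrophil score it was 0.33. Clec5a, a lectin that couples to TYROBP, differed by 0.34 ± 0.11 in CV minus KO (adjusted p = 0.247), and Pilra, an inhibitory receptor, by -0.30 ± 0.10 in R47H minus CV (adjusted p = 0.272).

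**Figure D5:**
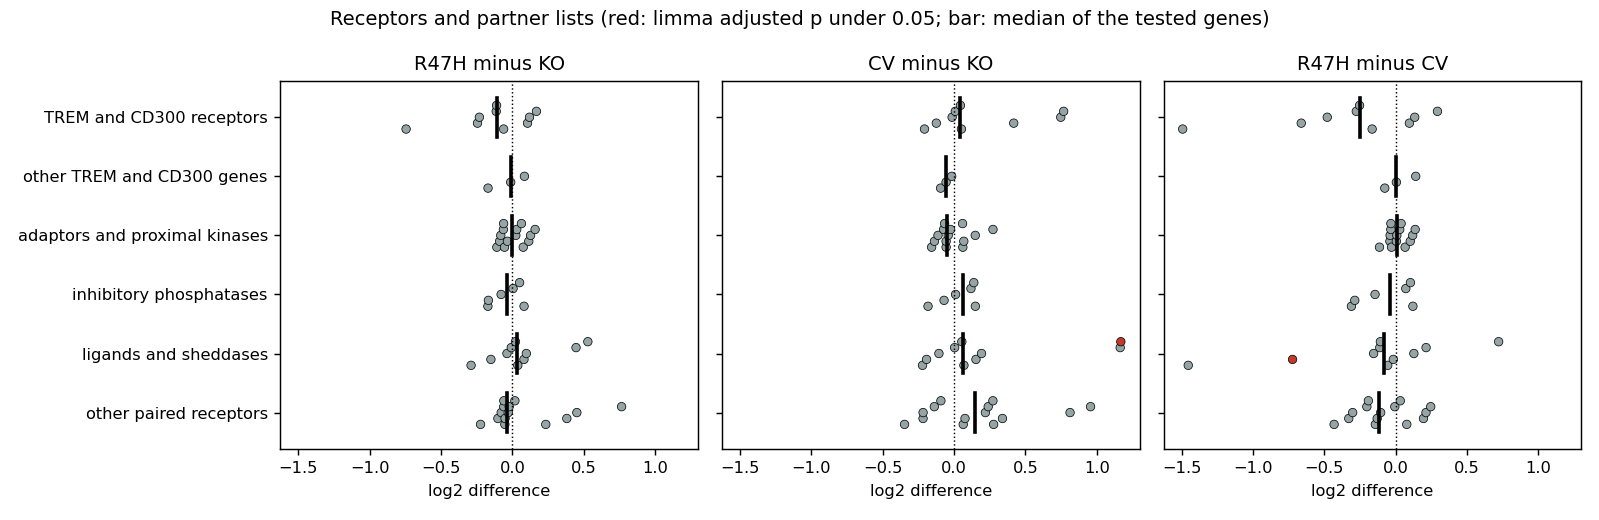
Log2 differences of the tested genes of each list (points) in R47H minus KO, CV minus KO and R47H minus CV, with the list median as a bar and genes called by limma in red. The only red points are Lgals3 in CV minus KO (1.17) and in R47H minus CV (-0.72).

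Genes whose values ran most alike with a receptor over the 9 arrays were named for the 5 tested receptors with the largest SD, as a description, since the arrays share genotype, sex and cell make-up. For Cd300ld they were Adgre5, Mid1 and Itga4, with Pearson r of 0.979, 0.971 and 0.968, and 17 of 10327 genes exceeded 0.9. For Trem1 they were Uqcc1, S100a6 and Mcemp1 (0.972, 0.948 and 0.940), and S100a6 was 1 of the monocyte markers. For Cd300lf they were Sorl1, Myo1f and Smo (0.954, 0.948 and 0.944), for Treml4 Mst1, Edem3 and Cblb (0.938, 0.899 and 0.879) and for Cd300lb Hpn, Pim1 and Pip5k1c (0.928, 0.884 and 0.867). As deviations from genotype means, r was 0.933 for Cd300ld with Adgre5, 0.942 for Trem1 with Uqcc1 and 0.870 for Cd300lb with Hpn.

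Between the 3 females and 6 males 0 of the 9 tested receptors were called, where 0.0648% of all genes were, and 1 of 9 had an unadjusted limma p under 0.05, where 11.0% of all genes did. That receptor was Treml2, with a female minus male difference of 0.29 ± 0.11 (limma adjusted p = 0.389), which was 0.12 without the R47H female. Cd300lf differed by 0.43 ± 0.20 (adjusted p = 0.47), and by 0.24 without that mouse. Trem1 and Trem3 differed by -0.16 ± 0.39 and -0.40 ± 0.22.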

How the data were processed

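The authors deposited a table of 35556 probe sets with 1 value for each array. The scale was taken as log2 from the values, which ran from 1.31 to 13.9, and the deposited values were used without change. How the authors corrected background, normalized and summarised probes is not stated in the labels. Per the labels' protocols, biotin-labelled material was made from 2 ng of total RNA. Gene names came from the platform's annotation (21789 with 1 gene symbol, 1621 with several, 12146 with none). Of the 21789, 21698 matched a RefSeq gene by identifier. The brightest single-symbol probe set stood for a gene.

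Genotype and sex were the terms of 1 model over the 9 arrays, fitted by lmFit and eBayes of limma (version 3.58.1, R version 4.3.3). It had 5 residual and 3.73 prior degrees of freedom. Genes with a mean at or above the 50th percentile were tested, two-sided, with Benjamini-Hochberg adjustment over all 10795, and called at an adjusted p under 0.05. The script was tested on simulated data. The labels name separate mice, and their number limits the precision: 3 against 3 cannot go below p = 0.1 by permutation.

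Members and lists were chosen with earlier results of these data known. All 10 members were named. From each partner list, called genes and up to 4 with the smallest p were named, and from cell type lists the brightest markers. Outside this rule, Tyrobp was named as the shared adaptor and Cd300e and Cd300lg as family members. Alternatives covered the model terms, the arrays fitted, the filter, the probe sets, the normalization, the neutrophil score and each mouse left out.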

Additional observations from a re-analysis of the deposited data

How the results depend on the processing

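With each mouse left out in turn, the number of receptors called was 0 to 1 in CV minus KO, in R47H minus CV and in the test of any genotype difference (Cd300lb, without R47H mouse 3), and 0 in R47H minus KO and in female minus male. It was 0 under each other alternative: no sex term, the compared groups alone, no filter, every probe set on its own, the mean of probe sets, trend and robust options, quantile normalization, median centring and the neutrophil score. Between 0 and 6 receptors then had an unadjusted limma p under 0.05, with 6 in R47H minus CV with no filter and with median centring. In the main model 5 of 9 did in that comparison, against 12.4% of all tested genes. The share of all genes was not counted under the alternatives. In the model with the neutrophil score the sign turned for Trem1 (-0.29), Trem3 (-0.28) and Cd300lf (0.10) in CV minus KO, Cd300lf (-0.23) in R47H minus CV, and Trem1 (0.48) and Treml4 (-0.0716) in female minus male. The Treml4 difference in CV minus KO turned to -0.0133 under quantile normalization and -0.0169 under median centring. The cause was not tested. With each mouse left out, some differences changed sign. In R47H minus KO the ranges of these were Treml1 -0.21 to 0.0092, Treml2 -0.0046 to 0.27, Cd300lb -0.19 to 0.30, Cd300ld -0.19 to 0.0239 and Cd300lf -0.30 to 0.0899. In CV minus KO the ranges of these were Trem2 -0.0622 to 0.0414, Trem3 -0.0662 to 0.53, Treml1 -0.0473 to 0.17, Treml4 -0.16 to 0.22, Cd300a -0.0039 to 0.13, Cd300lf -0.40 to 0.0689 and Cd300c2 -0.0449 to 0.0371. In R47H minus CV the ranges of these were Cd300lf -0.18 to 0.30 and B430306N03Rik -0.059 to 0.37. In female minus male the ranges of these were Trem2 -0.025 to 0.0538, Trem1 -0.56 to 0.0933, Treml1 -0.15 to 0.0171, Treml4 -0.20 to 0.26, Cd300a -0.066 to 0.11, Cd300lb -0.26 to 0.0099 and Cd300ld -0.0425 to 0.0706. Lgals3 kept its call in CV minus KO with each mouse left out (1.08 to 1.28), but not with every probe set tested or with the neutrophil score (limma adjusted p = 0.0549 and 0.0528). Its call in R47H minus CV was lost without the sex term, with the replicate block, with no filter, with every probe set, with the neutrophil score and with the compared groups alone (adjusted p = 0.128, 0.0544, 0.0725, 0.239, 0.391 and 0.0628). Siglech passed in CV minus KO with the trend and robust options (adjusted p = 0.0306).

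Over all genes, the count in CV minus KO was 131, and 54 with the compared groups alone, 77 without sex, 18 with every probe set, 22 with the neutrophil score and 59 to 172 with each mouse left out. In R47H minus CV it was 86, and 48 with no filter, 5 with every probe set, 6 with the neutrophil score and 9 to 132 with each mouse left out. In R47H minus KO it was 9, and 3 without sex, 1 with the compared groups alone, 0 with every probe set, 15 with the trend and robust options, 16 with the neutrophil score and 0 to 7 with each mouse left out. For any genotype difference it was 142, and 85 without sex, 17 with every probe set, 36 with the neutrophil score and 35 to 163 with each mouse left out. In female minus male it was 7, and 3 with the neutrophil score. Mouse numbers are shared across groups in the labels, which do not say that they mark a litter or batch. Of 9 pairs of mice with 1 number, 7 correlated above 0.1 in their deviations from group means (-0.04 to 0.362), and of 18 pairs with different numbers 3 did (-0.392 to 0.214). Number 1 is the female in every group, and sex was a term of the model. Because not every pair with 1 number exceeded 0.1, the numbers were not taken as pairs. With the replicate number as a block 0 receptors were called in R47H minus KO, CV minus KO, R47H minus CV and any genotype difference, and over all genes 11, 136, 83 and 136 against 9, 131, 86 and 142. Dim signal limits Trem3 and Treml4, which lay near the median of all probe sets, and also Trem1 and Cd300lb, which fell below the testing limit of 5.31 in single mice (Trem1 at 4.39 in R47H mouse 2, Cd300lb at 5.28 and 5.24 in R47H mice 1 and 2 and 5.30 in KO mouse 3). The partner gene Clu lay below that limit in every CV mouse (4.95 to 5.30).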
